A study of Mus musculus with 12 samples.

Results

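Mylk encodes myosin light chain kinase, and it was described here together with 9 genes by which mural cells, the pericytes and smooth muscle cells on the outside of blood vessels, are commonly recognised. The 9 were Acta2, Tagln, Myh11, Myl9, Tpm2, Pdgfrb, Rgs5, Kcnj8 and Vtn. These 10 genes were taken by symbol from the 24985 genes of the count table. Mylk was chosen by its measured counts, which were lower with acetate, so its values in the comparisons between groups are given as a description with no test. The question was whether the lower Mylk with acetate extended to the other mural genes.

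The data were RNA-seq of the dorsal hippocampus of the injected, right side from 12 C57Bl6/J mice, with 3 mice in each of 4 groups. Mice labelled PBS control received PBS at 6 months of age and ate a control chow. Mice labelled PBS acetate received PBS at the same age and ate LabDiet chow with 5% Na-acetate. The tau control and tau acetate groups received 1 µg of AD tau, pathological tau purified from human brains with Alzheimer's disease, at the same age and ate the control or the acetate chow. All 4 groups were wild type for Acss2 and were harvested 6 months after injection, the day after a remote memory test, so every group shared the surgery and the behavioural testing. Because the tau is a single unilateral injection of human material, the tau groups are a seeding model and carry no tau transgene. The labels give male mice, but Xist was between 919.8 and 1340.4 CPM (counts scaled to library size, after TMM normalization) in all 12 libraries and 8 Y-linked genes had 0 counts in total. This held in all 4 groups alike.

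Myosin light chain kinase, bound to calcium and calmodulin, phosphorylates the regulatory light chain of myosin, and this starts contraction in smooth muscle. Myosin phosphatase removes the phosphate. In the brain, smooth muscle cells ring arteries and arterioles, and pericytes sit on capillaries, where they help set blood flow and the blood-brain barrier. Mylk is not restricted to these cells, and its locus also gives a long, non-muscle form of the kinase and telokin, a short protein from the 3' end. Counts per gene cannot tell these forms apart.

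Totals were 12983233 to 20218340 counts per mouse, so that 1 count was worth 0.0496 to 0.0772 CPM. All 10 genes passed the filter on low counts, together with 14742 genes in all. Some members were sparse, with 14 to 73 counts per mouse for Tagln, 23 to 59 for Tpm2 and 35 to 64 for Kcnj8, whereas Mylk had 271 to 531. Markers of hippocampal neurons were present in every library, with summed levels of 452 to 946 CPM for 5 CA1 genes, 864 to 1731 CPM for 6 CA3 genes and 513 to 826 CPM for 6 dentate granule cell genes. Hippocampal tissue was sequenced whole, so fewer mural cells and less RNA per mural cell cannot be told apart.

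Mylk lies at chr16:34745210-35002420 on the plus strand of GRCm38 (GENCODE M21). Myl9, which encodes a regulatory light chain that the kinase phosphorylates, lies at chr2:156775420-156781658 on the plus strand. Many smooth muscle genes are driven by serum response factor, which binds the CArG box, and the 300 bases from 250 before to 50 after the RefSeq start (GRCm38.p6) are therefore shown for the kinase and its substrate, with the CArG box in capitals. The Myl9 window was chr2:156775214-156775513 and the Mylk window chr16:34784700-34784999, which lies inside the longer GENCODE span of the gene.
Myl9: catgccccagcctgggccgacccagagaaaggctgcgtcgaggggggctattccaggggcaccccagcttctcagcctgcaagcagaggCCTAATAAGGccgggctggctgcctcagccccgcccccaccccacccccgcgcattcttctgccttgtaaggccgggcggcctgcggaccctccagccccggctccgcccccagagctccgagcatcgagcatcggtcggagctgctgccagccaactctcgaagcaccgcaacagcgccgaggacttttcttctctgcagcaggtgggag
Mylk: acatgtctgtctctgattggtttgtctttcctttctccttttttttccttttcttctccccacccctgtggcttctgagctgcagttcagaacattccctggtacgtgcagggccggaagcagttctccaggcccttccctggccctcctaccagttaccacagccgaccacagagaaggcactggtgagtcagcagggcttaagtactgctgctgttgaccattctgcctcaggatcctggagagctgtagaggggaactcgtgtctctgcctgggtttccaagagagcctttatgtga
The search used CC, 6 bases of A or T and GG, which reads the same way on both strands. Windows were found for 7 of the 10 members, and Myl9 was the 1 that held an exact match to this pattern, CCTAATAAGG, starting at position -161. Of 32851 promoter windows of this length, 535 (1.629%) held one. A match is a description of the letters only. Boxes that differ from this strict pattern by 1 base were not searched for, and a window without a match may still hold one. The lack of a match therefore says nothing about binding inside the window or elsewhere.

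Per exon length, the pericyte genes Vtn and Rgs5 were the most abundant members. Vtn, a matrix glycoprotein, averaged 24.7 CPM per kilobase of exon (RPKM) over 12 mice (range 20.4 to 27.9), and Rgs5, a regulator of G protein signalling, 21.9 (19.6 to 25.2), and these ranges overlapped. The next gene, Myl9, averaged 6.11 (4.25 to 8.44) and did not overlap Rgs5. Below it came Pdgfrb at 4.37 (3.34 to 5.22), Acta2 at 3.00 (2.10 to 5.12), Mylk at 2.17 (1.51 to 3.17), Tagln at 1.53 (0.537 to 2.65), Kcnj8 at 1.15 (0.934 to 1.39), Tpm2 at 0.913 (0.552 to 1.44) and Myh11 at 0.820 RPKM (0.303 to 1.49). Each of these overlapped its neighbours in the order.

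**Figure D1:**
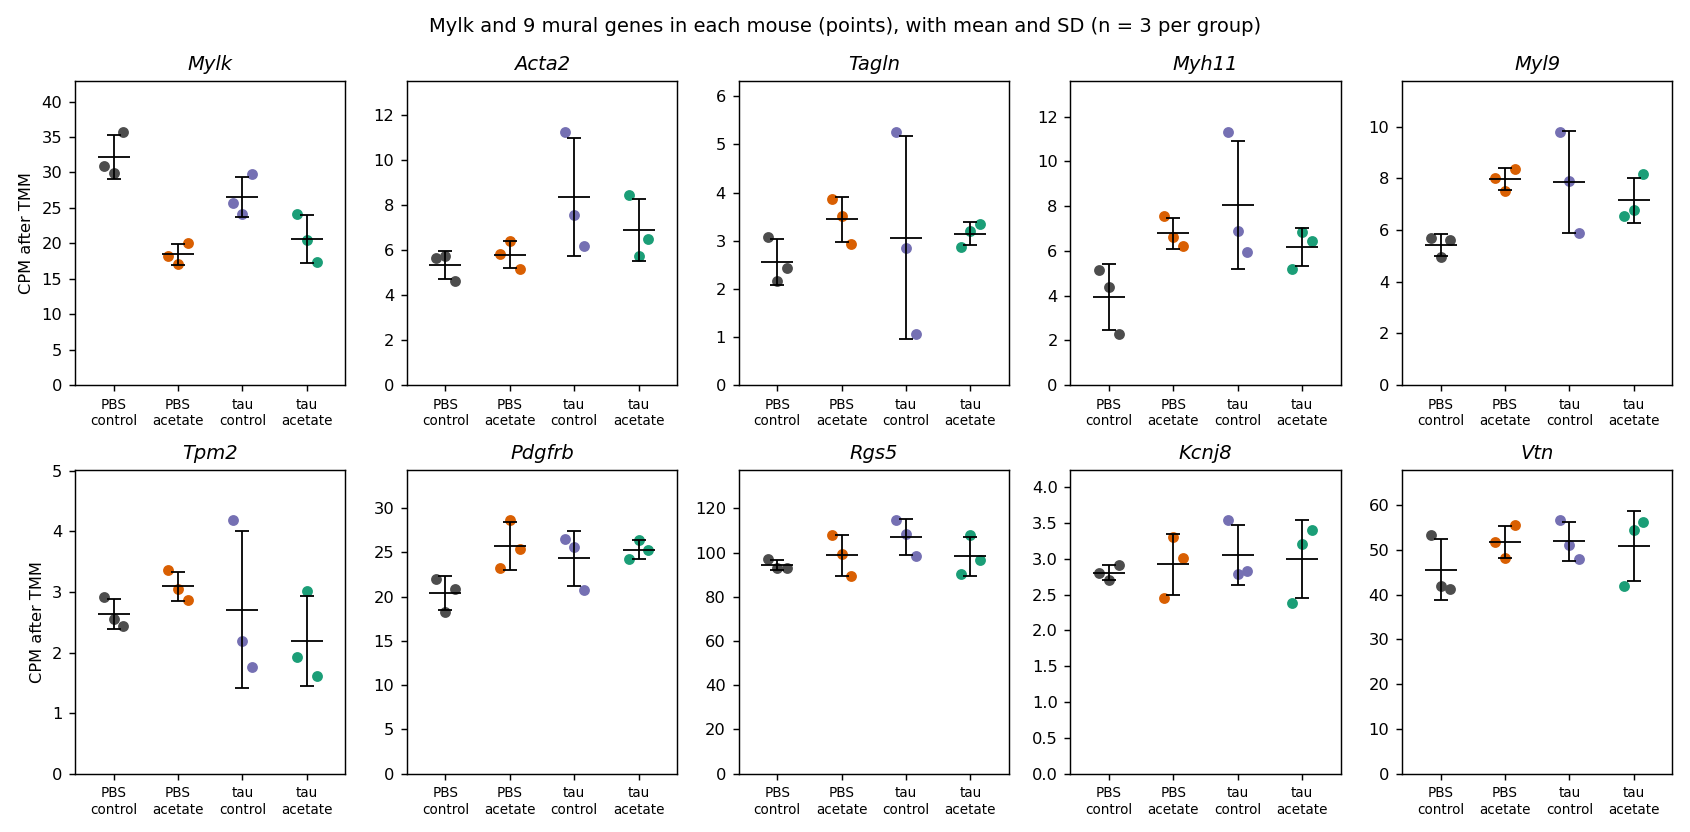
CPM after TMM normalization (vertical axis, from 0) of Mylk and the 9 mural genes in each of the 4 groups, with 1 point per mouse, the mean as the wide bar and the SD as the error bar (n = 3 mice). Mylk is lower in PBS acetate than in PBS control mice, Myl9 and Pdgfrb are higher there, and tau control mouse 1 is the highest point for Acta2, Tagln, Myh11, Myl9 and Tpm2.

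Mylk was at 30.9, 30.0 and 35.8 CPM in the 3 PBS control mice and at 18.2, 17.0 and 20.1 CPM in the 3 PBS acetate mice. These 2 groups did not overlap, which is the pattern for which the gene was chosen. The log2 fold change was -0.81 (SE 0.11). In tau-injected mice Mylk was at 25.7, 24.2 and 29.8 CPM on the control diet and at 24.1, 20.4 and 17.4 CPM with acetate. The lowest tau control mouse (24.21 CPM) lay just above the highest tau acetate mouse (24.13 CPM). The log2 fold change was -0.35 (SE 0.11) in edgeR's quasi-likelihood fit. Of all genes, 14.4% had groups without overlap in this comparison, 7.77% in the lower direction, and 0.0611% were called, that is, had an adjusted p under 0.1 (Benjamini-Hochberg over all genes). For Mylk this comparison is a description with no test, and no fall in tau-injected mice is inferred from it. Leaving out single mice gave -0.48 to -0.24 for Mylk. With tau against PBS, Mylk was -0.28 (SE 0.11) on the control diet and 0.17 (SE 0.12) on the acetate diet.

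None of the other 9 genes fell with acetate in PBS-injected mice. Myl9 and Pdgfrb rose, and all 9 log2 fold changes were above 0, with a median of 0.23 against 0.004 over all genes, 49.1% of which were below 0. By edgeR, 2 of the 9 were called, both higher, where 8.84% of all 14742 genes were called in this comparison, 3.99% higher and 4.85% lower. Myh11, Myl9 and Pdgfrb had groups without overlap, as had 26.3% of all genes, 13.1% in the higher direction. These 3 of the 9 also had an unadjusted p below 0.05, against 20.8% of all genes, and DESeq2 called all 3.

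Among the contractile genes, Myl9 was at 5.71, 4.94 and 5.62 CPM in PBS control mice and at 8.01, 7.53 and 8.37 CPM in PBS acetate mice. Every acetate mouse was above every control mouse. The log2 fold change was 0.55 (SE 0.17, edgeR, Benjamini-Hochberg adjusted p = 0.0710). The call was lost without any one of the 6 PBS mice, with edgeR adjusted p from 0.118 without PBS control mouse 1 to 0.192 without PBS acetate mouse 2, while the log2 fold change stayed between 0.49 and 0.59. Myh11, the smooth muscle myosin heavy chain, was at 5.12, 4.40 and 2.30 CPM without acetate and at 7.56, 6.60 and 6.20 CPM with it. Its groups did not overlap either, but its log2 fold change of 0.77 (SE 0.27) missed the threshold by edgeR (adjusted p = 0.120). DESeq2, which called 9.29% of the 14751 genes with an adjusted p from it, gave an adjusted p of 0.0564. The edgeR log2 fold change ranged from 0.50 without PBS control mouse 3 to 1.04 without PBS control mouse 1. Without PBS control mouse 1 Myh11 was called, at an edgeR adjusted p of 0.0855, as it was without tau control mouse 1 (0.0592) or tau control mouse 3 (0.0988), which enter the fit only through the estimate of the spread.

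Acta2, the smooth muscle actin by which these cells are most often stained, was at 5.65, 5.71 and 4.60 CPM in PBS control mice and at 5.81, 6.39 and 5.17 CPM with acetate. These groups overlapped, and the log2 fold change was 0.13 (SE 0.21, edgeR adjusted p = 0.777, 95% confidence interval -0.31 to 0.56). The remaining contractile genes were the actin-binding Tagln at 0.41 (SE 0.36, edgeR adjusted p = 0.559) and the tropomyosin Tpm2 at 0.23 (SE 0.29, adjusted p = 0.703), and both overlapped between groups. Their intervals were wide, -0.36 to 1.18 for Tagln and -0.38 to 0.83 for Tpm2.

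Among the pericyte genes, Pdgfrb, the receptor through which endothelial platelet-derived growth factor recruits pericytes, was at 22.0, 18.3 and 20.9 CPM in PBS control mice and at 23.2, 28.6 and 25.4 CPM in PBS acetate mice. The groups did not overlap, although the highest control and the lowest acetate mouse were near each other. The log2 fold change was 0.34 (SE 0.10, edgeR, Benjamini-Hochberg adjusted p = 0.0706). The call was lost without PBS control mouse 2 (0.27, edgeR adjusted p = 0.194), PBS control mouse 3 (0.35, edgeR adjusted p = 0.161) or PBS acetate mouse 2 (0.26, edgeR adjusted p = 0.313). The other pericyte genes overlapped between groups and were not called. Rgs5 had a log2 fold change of 0.07 (SE 0.08), with a 95% confidence interval of -0.09 to 0.22. Vtn was at 0.18 (SE 0.12, interval -0.08 to 0.44), and Kcnj8, the pore subunit of a potassium channel gated by ATP, at 0.06 (SE 0.22, interval -0.39 to 0.51).

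**Figure D2:**
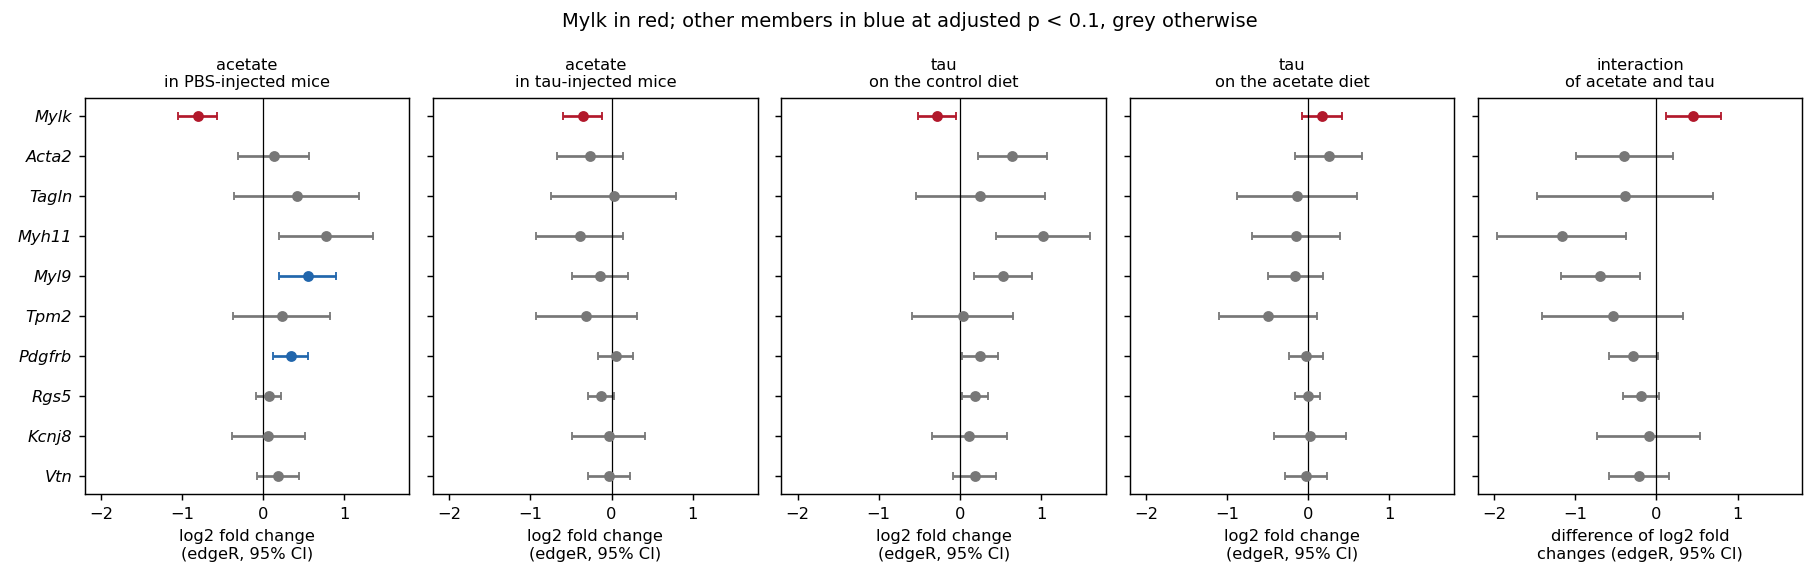
Log2 fold changes with 95% confidence intervals from edgeR (horizontal axis) for the 10 genes in 5 comparisons, the last being the difference of the 2 acetate effects, with Mylk in red and the comparison that chose it in the first panel. The intervals of Mylk are a description with no test. Myl9 and Pdgfrb in the first panel, in blue, are the members past an adjusted p of 0.1, and in that panel all 9 other genes lie to the right of 0.

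With acetate in tau-injected mice the other 9 genes were spread around 0. None was called by edgeR, where 0.0611% of all genes were, or by DESeq2, which gave no adjusted p for 6 of them. DESeq2 called 2.19% of the 8001 genes with an adjusted p. Of the 9 genes, 0 had an unadjusted p below 0.05, which 10.9% of all genes had. Of their values, 7 of 9 log2 fold changes were below 0, where 49.7% of all genes were, and the median was -0.13 against 0.001 over all genes. No member other than Mylk had groups without overlap, against the 14.4% of all genes. Myl9 was at 9.81, 7.89 and 5.88 CPM on the control diet and at 6.54, 6.78 and 8.16 CPM with acetate (log2 fold change -0.14, SE 0.16, edgeR adjusted p = 0.810). Pdgfrb was at 26.5, 25.7 and 20.8 CPM and at 24.2, 26.4 and 25.2 CPM (0.05, SE 0.10, edgeR adjusted p = 0.910). In both genes the acetate mice lay within the range of the control mice. The lowest value among the 9 was that of Myh11, at -0.39 (SE 0.25, edgeR adjusted p = 0.610), and the highest was that of Pdgfrb.

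Tau control mouse 1 stood apart here, with the highest level of the 12 mice for Acta2 (11.3 CPM), Tagln (5.26), Myh11 (11.3), Myl9 (9.81) and Tpm2 (4.18). Without it, the acetate values in tau-injected mice were 0.01 for Acta2, 0.65 for Tagln, -0.07 for Myh11, 0.05 for Myl9 and 0.15 for Tpm2, so that 3 of these genes crossed to the other side of 0. The value of Mylk without this mouse was -0.37.

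On the control diet, tau was set against PBS. All 9 other genes had log2 fold changes above 0 (50.3% of all genes were below 0), with a median of 0.25, but none was called by edgeR, where 0.0136% of all genes were. At an unadjusted p below 0.05 there were 5 of the 9, against 9.65% of all genes. Acta2 was at 11.3, 7.56 and 6.18 CPM in tau control mice, above all 3 PBS control mice (log2 fold change 0.65, SE 0.20, edgeR adjusted p = 0.351). Myh11 at 11.3, 6.90 and 5.95 CPM was also above all 3 (1.02, SE 0.27, edgeR adjusted p = 0.296). DESeq2 called it (adjusted p = 0.0436), as it called 0.688% of the 12502 genes to which it gave an adjusted p. Myl9 gave 0.53 (SE 0.17, edgeR adjusted p = 0.351) and Rgs5 0.18 (SE 0.08, edgeR adjusted p = 0.437), again without overlap, which 13.5% of all genes showed, 6.61% in the higher direction. Pdgfrb was at 0.25 (SE 0.11, edgeR adjusted p = 0.447). Without tau control mouse 1 the values were 0.37 for Acta2, 0.70 for Myh11, 0.35 for Myl9, -0.37 for Tagln and -0.41 for Tpm2.

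On the acetate diet, tau against PBS gave no call among the 9 by edgeR (0.136% of all genes were called). DESeq2 gave none either (0.674% of the 16625 genes with an adjusted p were called). At an unadjusted p below 0.05 there were 0, against 10.3% of all genes. The median was -0.03, and 7 of 9 were below 0, as were 51.2% of all genes. Values ran from -0.50 for Tpm2 (SE 0.29, edgeR adjusted p = 0.578) to 0.25 for Acta2 (SE 0.20, edgeR adjusted p = 0.711). The difference between the acetate effects in tau-injected and PBS-injected mice was below 0 for all 9 genes (median -0.39) and above 0 for Mylk (0.46, SE 0.16, given as a description). Of all genes 51.2% were below 0. None of the 9 was called for this difference by edgeR, where 1.56% of all genes were. Myh11 was called by DESeq2, where 2.8% of the 15500 genes with an adjusted p were. At an unadjusted p below 0.05 there were 2 of the 9, against 13% of all genes. Myh11 had the lowest value, -1.17 (SE 0.37, edgeR adjusted p = 0.179, DESeq2 adjusted p = 0.0747), and Myl9 followed at -0.69 (SE 0.24, edgeR adjusted p = 0.194). These comparisons share mice: the acetate effect in PBS-injected mice and the tau effect on the control diet are both taken from the same 3 PBS control mice, in which all 9 genes had their lowest or next to lowest group mean.

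Other genes of the vessel wall and of the kinase pathway were read from fixed lists. Over 97 tested mural and vascular genes that are not members, 8 were called with acetate in PBS-injected mice (8.25%, against 8.84% of all genes), 6 higher and 2 lower, with a median of 0.07. This share was near that of all genes. Without PBS acetate mouse 2 the count was 0, and it was 1 without PBS control mouse 3 or PBS acetate mouse 1, 4 without PBS control mouse 1 and 5 without PBS control mouse 2. Calls over all genes fell in these fits too, from 1303 to 15 without PBS acetate mouse 2. They were 248 without PBS control mouse 3, 315 without PBS acetate mouse 1, 727 without PBS control mouse 1 and 982 without PBS control mouse 2. In tau-injected mice 0 of 97 were called by edgeR, where 0.0611% of all genes were. At an unadjusted p below 0.05 there were 13, against 10.9% of all genes. DESeq2 called 2 of the 97, and 2.19% of the 8001 genes to which it gave an adjusted p.

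In the contractile list, 17 of 20 genes were tested, 1 was higher and 1 lower with acetate in PBS-injected mice, and the median was 0.04. Itga8, an integrin subunit of smooth muscle and other cells, rose from 18.8 to 25.3 CPM in PBS control mice to 33.3 to 37.5 CPM in PBS acetate mice (log2 fold change 0.63, SE 0.11, edgeR adjusted p = 0.0117). Kcnmb1, a subunit of the large calcium-gated potassium channel of smooth muscle, fell from 1.56 to 2.15 CPM to 0.581 to 1.34 CPM (-1.15, SE 0.39, edgeR adjusted p = 0.09999). Of the kinase and phosphatase list, 16 of 18 genes were tested and 1 was called, with a median of -0.06. This was Ppp1cb, the catalytic subunit of myosin phosphatase and of other phosphatase complexes, at -0.23 (SE 0.06, edgeR adjusted p = 0.0512). The kinase paralog Mylk3 was at 0.15 (SE 0.29, edgeR adjusted p = 0.814), and Mylk2 never exceeded 0.0516 CPM in any mouse.

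Among 10 tested regulators of serum response factor and of the contractile program, Notch3, the receptor that maintains arterial smooth muscle, was the 1 called (0.39, SE 0.13, edgeR adjusted p = 0.0880), and the median was 0.10. Of 18 other pericyte genes 3 were higher and 0 lower, with a median of 0.06. They were Atp13a5, a pericyte-enriched transporter (0.44, SE 0.14, edgeR adjusted p = 0.0703), Cspg4, the NG2 proteoglycan of pericytes and oligodendrocyte precursors (0.29, SE 0.09, edgeR adjusted p = 0.0767), and again Notch3. Pdgfrb was the 1 gene called of 7 ligands and receptors of the platelet-derived growth factor family (median 0.19). Of 18 endothelial genes, 2 were higher, the efflux pump Abcb1a (0.30, SE 0.09, edgeR adjusted p = 0.0593) and Itm2a (0.24, SE 0.08, edgeR adjusted p = 0.0962), and the median was 0.09. The summed level of the endothelial list was 409 to 419 CPM in PBS control mice and 438 to 447 CPM in PBS acetate mice, so these groups did not overlap. In a fit with the endothelial score as a covariate, Myl9 was at 0.43 (edgeR adjusted p = 0.231), Pdgfrb at 0.27 (edgeR adjusted p = 0.221) and none of the 9 was called, and Mylk was at -0.75. Of 14 fibroblast and meningeal genes 0 were called by edgeR, 1 had an unadjusted p below 0.05, and the median was 0.20.

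Neuronal markers also changed, in opposite directions. With acetate in PBS-injected mice 5 of 6 CA3 pyramidal cell genes were called lower (median -0.76, with Trps1, Iyd, Grik4 and Chgb among them). Of 5 CA1 genes, 4 were called higher (median 0.68). Of all genes, 4.85% were called lower and 3.99% higher. The summed levels of both lists did not overlap between these groups: 1423 to 1731 CPM in PBS control and 864 to 1264 CPM in PBS acetate mice for CA3, and 452 to 589 CPM against 718 to 946 CPM for CA1. Iyd, Grik4 and Chgb each lost the call without PBS control mouse 3, without PBS acetate mouse 1 and without PBS acetate mouse 2. Grik4 and Chgb also lost it without PBS control mouse 1. In tau-injected mice the CA3 genes were at 1116 to 1351 CPM on the control diet and 934 to 1355 CPM with acetate. By edgeR 0 of 6 were called (0.0611% of all genes), and none had an unadjusted p below 0.05 (10.9% of all genes). DESeq2 called 0 of them, and 2.19% of the 8001 genes with an adjusted p. With the CA1 minus CA3 score as a covariate, Mylk was at -0.27 with acetate in PBS-injected mice and at -0.21 in tau-injected mice. In that fit Myl9 was at 0.38 and Pdgfrb at 0.14, and no gene of the table was called with acetate in PBS-injected mice, whose groups did not overlap in either score. The other lists in this comparison gave 3 of 8 oligodendrocyte genes lower (median -0.61), 2 of 8 choroid plexus genes lower (median -1.08), 1 higher and 1 lower of 6 astrocyte genes (median -0.05), and by edgeR 0 called of 5 CA2 (-0.52), 6 dentate granule (0.21) and 5 mossy cell genes (-0.07). At an unadjusted p below 0.05 these last were 2 CA2, 1 dentate granule and 0 mossy cell genes, and DESeq2 called 2, 1 and 0. Of 5 blood genes 1 was tested and not called, and 4 globin genes were listed at 0. What these other cell types contribute to the values of the 10 genes was not tested beyond the covariate fits.

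**Figure D3:**
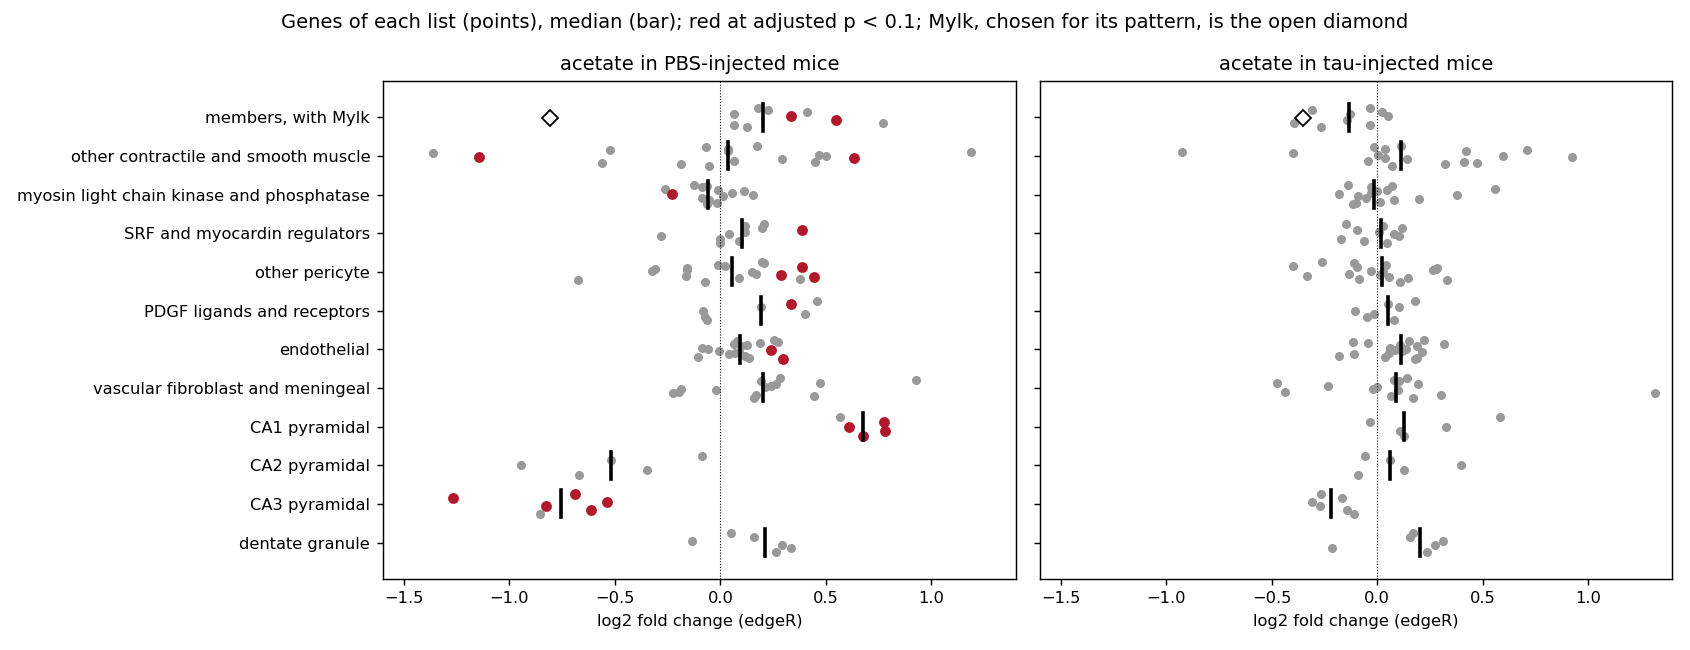
Log2 fold changes from edgeR (horizontal axis) with acetate in PBS-injected mice (left) and in tau-injected mice (right), with 1 point per gene, the median of each list as a bar, and red points at an adjusted p below 0.1. Mylk, the open diamond, lies left of the other members in the left panel, and the CA3 genes lie left of 0 in both panels, with medians of -0.76 and -0.22.

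Over the 12 mice the genes whose log2 CPM was most like that of Mylk were Kif5c, a neuronal kinesin (Pearson's r = 0.98), Elavl2, a neuronal RNA-binding protein (0.97), Nrip3 (0.96), the axon guidance receptor Robo1 (0.96), Ogfrl1 (0.96), Chst11 (0.95), the potassium channel gene Kcna1 (0.95) and Fgfr1op2 (0.95). On deviations from the group means the most like were Snhg18 (0.97), Ube4b (0.96), Mei1 (0.93) and 2510039O18Rik (0.92). None was a mural gene of the lists used here. Snhg18 and Mei1 were sparse, with means of 1.52 and 1.37 CPM. Over the 12 mice Snhg18 and 2510039O18Rik ranked 2341 and 4182 in likeness to Mylk. All 9 other members had a negative r with Mylk over the 12 mice, from -0.73 for Pdgfrb to -0.09 for Tpm2, and the best placed, Tpm2, ranked 8188 of 14742 genes. Among themselves the other members did vary together within groups: all 10 pairs of contractile genes had a positive correlation of deviations (median 0.60), as had all 6 pairs of pericyte genes (median 0.43) and 19 of 20 pairs between the 2 sets (median 0.44). The correlations with Mylk over the 12 mice include the difference between PBS control and PBS acetate mice by which Mylk was chosen. They are therefore no independent evidence. All correlations of this paragraph are descriptions over 12 mice that share library depth.

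On deviations from the group means, from which every difference between groups is removed, the level of Mylk was compared with 15 list scores by exact permutation within groups (1296 permutations, two-sided, n = 12 mice). Mylk varied with the CA3 score, with Pearson's r = 0.84 (permutation p = 0.00386, Benjamini-Hochberg adjusted p = 0.0405 over 15 scores) and Spearman's rho = 0.84 (permutation p = 0.00617, adjusted p = 0.0810). Against the CA1 score r was -0.83 (permutation p = 0.0131, adjusted p = 0.0656) and rho -0.71 (permutation p = 0.0386, adjusted p = 0.127). Without the 2 mice farthest from the median of the Mylk deviations, r was 0.77 for CA3 and -0.75 for CA1. The fibroblast and meningeal score gave r = -0.87 (permutation p = 0.0054, adjusted p = 0.0405) and rho = -0.83 (permutation p = 0.0147, adjusted p = 0.0810), and -0.76 without those 2 mice. The list of other contractile and smooth muscle genes gave r = -0.77 (permutation p = 0.0208, adjusted p = 0.0781) and rho = -0.80 (permutation p = 0.0162, adjusted p = 0.0810), and -0.64 without them. The CA2 score gave r = 0.67 (permutation p = 0.0293, adjusted p = 0.0880) and rho = 0.66 (permutation p = 0.0509, adjusted p = 0.127), and 0.76 without them. The other 10 scores had an adjusted p above 0.1 on both measures. Of the 9 other members, 0 had an adjusted p below 0.1 with Mylk on these deviations by the exact permutation test, where the smallest unadjusted p was 0.0841, for Myh11.

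**Figure D4:**
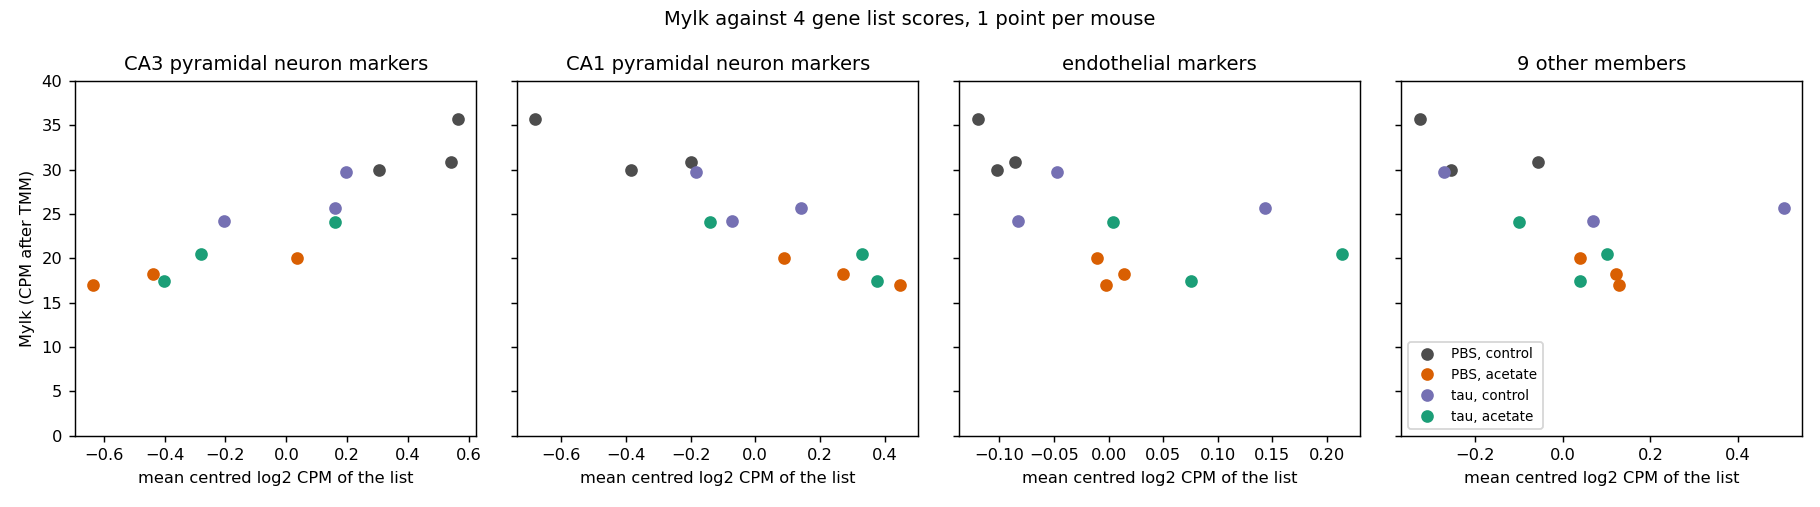
Mylk in CPM after TMM (vertical axis) against the score of 4 gene lists, the mean of centred log2 CPM (horizontal axes), with 1 point per mouse in the colour of its group. Mylk is higher in mice with a higher CA3 score and lower in mice with a higher CA1 score, the CA3 order holds within each group, and the 9 other members show no such rise with Mylk.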

How the data were processed

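Poly(A) RNA of the dorsal hippocampus of 12 mice was sequenced. Per the labels, the authors aligned reads with STAR 2.5.2a to GRCm38, used SAMtools 1.1, counted exonic reads on the reverse strand with HTSeq 0.9.1, and deposited raw counts per gene, 1 column per mouse. Groups came from the labels. Everything else was computed here.

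Genes were kept by filterByExpr (minimum count 10, minimum total 15), which left 14742. After TMM scaling, all 12 mice entered a robust quasi-likelihood fit of 4 group means in edgeR 4.0.16 (8 residual degrees of freedom, R 4.3.3), and contrasts were tested by F test, with Benjamini-Hochberg adjustment over all genes and calls at an adjusted p below 0.1. The labels number the libraries of a group and name no animals, so p-values measure the spread between these libraries, each taken as a mouse. The common biological coefficient of variation was 7.25%. DESeq2 1.42.0 was the alternative tool. CPM are after TMM. RPKM use the exon union of GENCODE M21. A list score is the mean of each gene's log2 CPM (prior count 2) after centring. The functions were tested on simulated data. Alternatives were other size factors, no filter, the compared mice alone, a replicate block, 2 covariates, a threshold of 0.05 and leaving out each mouse.

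The members and lists were chosen with earlier results of these data known. Named genes were all 10 members, in each list up to 4 called genes of smallest p or else the gene of largest change, and the 8 and 4 genes most like Mylk. Lists without a call are given by counts and medians. For 1 gene of the CA1 list, single-gene values are not reported here.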

Additional observations from a re-analysis of the deposited data

Results flagged for a closer look

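The interaction term of edgeR, with Benjamini-Hochberg adjustment over all genes, was called for 6 genes of the lists. For these, acetate had a different effect in the tau groups than in the PBS groups. It was called for none of the 9 members other than Mylk, and for 1.56% of all genes. Values are log2 differences, the acetate effect in tau-injected minus that in PBS-injected mice. In the contractile list 4 of 17 tested genes were called. Csrp1, a LIM domain protein of smooth muscle and other cells, was at 0.51 (SE 0.10, adjusted p = 0.0435). Sncg was at 1.23 (SE 0.32, adjusted p = 0.0868), Kcnmb1 at 2.07 (SE 0.54, adjusted p = 0.0885) and Itga8 at -0.60 (SE 0.16, adjusted p = 0.0902). Among markers of other cells, Folr1 of the choroid plexus was at 2.92 (SE 0.71, adjusted p = 0.0755) and the astrocyte water channel Aqp4 at 0.35 (SE 0.09, adjusted p = 0.0755). Of 8 oligodendrocyte genes edgeR called 0, but all 8 were above 0, with a median of 1.11. All 8 had an unadjusted p below 0.05, as had 13% of all genes. DESeq2 called all 8, and 2.8% of the 15500 genes with an adjusted p. The share of each cell type in the level of Csrp1 was not tested. Csrp1 averaged 295.5 ± 15.8 and 259.8 ± 22.0 CPM (SD, n = 3) in PBS control and PBS acetate mice and 240.6 ± 12.2 and 300.2 ± 24.1 CPM in tau control and tau acetate mice. When each of the 12 mice was left out in turn, Csrp1 stayed called in 10 fits, Aqp4 in 6, Folr1, Itga8 and Kcnmb1 in 3 each and Sncg in 2. For Folr1 these fits gave 2.15 to 3.33, the lowest without tau acetate mouse 3, where the choroid plexus list summed to 489 CPM against 82.9 and 81.7 CPM in the other tau acetate mice. With the CA1 minus CA3 score as a covariate none of the 6 was called, in a fit that called 3 of all genes, against 230 without it. Their values were then 0.47 for Csrp1, 1.33 for Sncg, 1.59 for Kcnmb1, -0.41 for Itga8, 3.51 for Folr1 and 0.40 for Aqp4.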

How the results depend on the processing

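With acetate in PBS-injected mice, the count of 2 called members (other than Mylk) was 0 with the endothelial score or the CA1 minus CA3 score as a covariate and at a threshold of 0.05, and ranged from 0 to 3 when single mice were left out. Without PBS acetate mouse 2, 15 genes of the whole table were called in this comparison, against 1303 with all mice. For tau on the control diet, DESeq2 called 1 member (Myh11) in place of 0. For the difference of acetate effects, DESeq2 or the endothelial covariate called 1 in place of 0, and leaving out mice gave 0 to 1. Over 12 mice 2 of 9 members passed an adjusted p of 0.1 for correlation with Mylk (permutation test), which includes the contrast that chose Mylk and is no independent evidence, and 0 did on deviations from the group means or without the 2 farthest mice.

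For the 97 other mural and vascular genes, the count of 8 with acetate in PBS-injected mice was 5 with DESeq2, 2 with the endothelial covariate, 0 with the CA1 minus CA3 covariate, 1 at a threshold of 0.05 and 0 to 8 without single mice. With acetate in tau-injected mice 0 became 2 without the filter or with DESeq2 and was 0 to 2 without single mice. For tau on the control diet 0 became 2 with DESeq2 or on the compared mice alone. For tau on the acetate diet 1 (Sncg) became 2 with DESeq2 or the endothelial covariate, 0 with the CA1 minus CA3 covariate, on the compared mice alone or at a threshold of 0.05, and 0 to 2 without single mice. For the difference of acetate effects 4 became 0 with the CA1 minus CA3 covariate, in a fit that called 3 of all genes. The count was 1 at a threshold of 0.05 and 0 to 4 without single mice. The CA1 minus CA3 covariate also reversed, with acetate in PBS-injected mice, Chgb (0.0027), Cpne4 (0.027), Grik4 (0.021) and Mpped1 (-0.080), which are part of that score. The cause of the other changes was not tested.

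Correlations of deviations gave no sign of pairing by replicate number, but with 3 mice per group they cannot exclude it. Between same-numbered mice they were -0.10 to 0.14, with 2 of 18 over 0.1, and between other mice -0.14 to 0.15. With the replicate block, 3 members (Myh11, Myl9 and Pdgfrb) were called with acetate in PBS-injected mice. Over all genes the block gave 1224 calls there, against 1303 without it, and 349 against 230 for the difference of acetate effects. It gave 10 against 9 for acetate in tau-injected mice. For tau it gave 9 against 2 on the control diet and 25 against 20 on the acetate diet. Tagln, Tpm2 and Kcnj8 had at most 73 counts in any mouse.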
